A study of Rattus norvegicus with 24 samples.

Results

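A set of core and output genes of the circadian clock was followed in the frontal cortex of rats that inhaled tungsten particles. The genes are Per1, Per2, Per3, Cry1, Cry2, Arntl, Nr1d1, Nr1d2, Dbp and Ciart. They were chosen by name, with earlier results of these data known. Each matched 1 of the 32883 reference genes in every table, so 10 of 32883 genes are described. Frontal cortex RNA came from 24 adult male Sprague-Dawley rats, 8 in each of 3 groups. Control rats received 0 mg/m3 of tungsten aerosol, Low rats 5 mg/m3 and High rats 80 mg/m3, and tissue was taken 24 h after exposure. All 24 sample titles hold the word Repeat. The titles do not say whether it means repeated exposure. The extraction note of the labels speaks of cell lines, while the tissue label and the study's methods give frontal cortex tissue. No source used here states the hour of day of sampling, so no level below can be placed on the daily cycle.

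The mammalian clock is a feedback loop of transcription that runs once a day in most cells, cortical neurons and glia included. ARNTL (also called BMAL1) pairs with CLOCK or NPAS2, binds E-box sequences and drives the Per and Cry genes, whose proteins return to the nucleus and block the pair. The same pair drives Nr1d1 and Nr1d2, which encode the nuclear receptors REV-ERB alpha and beta and repress Arntl, as well as Dbp, an output transcription factor that binds D-box sequences, and Ciart (CHRONO), a further repressor of the pair. In rodent tissues Arntl mRNA therefore cycles roughly opposite to Dbp, Per and Nr1d1 mRNA. Per1 and Per2 are in addition induced within the hour by neuronal activity and by glucocorticoids.

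Promoter sequences are shown for Ciart, Per2, Nr1d1 and Arntl, because they hold the letters through which this loop is known to work and because the first 3 genes and Arntl lie on opposite sides of it. RefSeq windows of the GRCr8 assembly, from 250 bases before to 50 bases after the annotated start, were found for 9 of the 10 genes (10 windows, 2 of them for Nr1d1, with Arntl listed as Bmal1). Cry1 was not matched. Capitals mark matches to the E-box CACGTG, the related CACGTT, the D-box TTATGTAA or the REV-ERB site TAGGTNA, each searched on both strands, and every sequence reads 5′ to 3′ on the strand of the gene.
Ciart (chr2:186112197-186112496, minus strand): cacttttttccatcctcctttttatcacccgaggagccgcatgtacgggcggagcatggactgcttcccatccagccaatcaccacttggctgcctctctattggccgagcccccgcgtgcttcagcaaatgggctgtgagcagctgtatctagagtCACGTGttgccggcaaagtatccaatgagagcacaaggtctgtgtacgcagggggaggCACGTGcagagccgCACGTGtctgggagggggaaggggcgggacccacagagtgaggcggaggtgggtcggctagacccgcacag
Per2 (chr9:99496944-99497243, minus strand): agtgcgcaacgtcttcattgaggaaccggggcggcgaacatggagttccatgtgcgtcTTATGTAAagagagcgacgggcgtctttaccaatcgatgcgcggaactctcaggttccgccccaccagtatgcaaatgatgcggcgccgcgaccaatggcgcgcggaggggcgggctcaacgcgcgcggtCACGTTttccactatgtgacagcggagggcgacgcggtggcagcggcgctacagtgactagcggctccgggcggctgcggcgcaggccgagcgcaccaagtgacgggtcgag
Nr1d1, second window (chr10:84229405-84229704, minus strand): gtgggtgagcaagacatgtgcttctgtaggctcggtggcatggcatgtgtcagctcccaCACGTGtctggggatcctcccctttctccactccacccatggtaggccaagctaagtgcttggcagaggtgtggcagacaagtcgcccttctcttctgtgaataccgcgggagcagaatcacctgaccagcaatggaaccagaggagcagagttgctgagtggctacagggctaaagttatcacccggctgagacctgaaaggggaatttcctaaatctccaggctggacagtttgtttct
Arntl (chr1:176766078-176766377, plus strand): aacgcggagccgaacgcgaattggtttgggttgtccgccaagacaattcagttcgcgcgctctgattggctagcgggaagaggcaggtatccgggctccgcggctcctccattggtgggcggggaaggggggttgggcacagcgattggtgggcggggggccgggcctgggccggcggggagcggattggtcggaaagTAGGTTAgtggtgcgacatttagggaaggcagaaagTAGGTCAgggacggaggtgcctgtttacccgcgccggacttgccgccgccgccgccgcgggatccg
Ciart held 3 matches to CACGTG, a number found in 0.0568% of all 33469 windows, while 6.42% hold at least 1. The second Nr1d1 window held 1 match to CACGTG, and the first held 1 to CACGTT, which 4.83% of windows hold. Per2 held 1 match to CACGTT and 1 to TTATGTAA, which 0.893% of windows hold. Arntl held 2 matches to TAGGTNA, where 0.547% of windows hold 2 or more and 8.7% at least 1, and the second of them overlaps AGGTCA, which 16.2% hold. Cry2 held 1 match to CACGTT and Nr1d2 1 to AGGTCA. The TTACGTAA form of the D-box (0.12% of windows) and the cAMP response element TGACGTCA (1.83%) were in none of the 10 windows, and the Dbp, Per1 and Per3 windows held none of the 7 motifs searched. These matches describe letters and not bound sites.

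The measure used is StringTie coverage, the average number of reads over each base of a gene, divided by its total over all reference genes and multiplied by 1000000. It is called scaled coverage below, it takes gene length into account, and it was compared on the log2(value + 1) scale, which understates the change of low genes. Coverage summed over the reference genes was 1.64 to 3.07 times 1000000 per rat. The study's methods state 1 fixed read number for all samples, but the tables hold no read counts, so no counting error is given for a gene. Low tables held 0 loci assembled from reads, against 46334 to 159573 in Control and 50235 to 64010 in High, so the Low dose and this difference in how tables were made cannot be told apart. Libraries 56 to 62, which are 1 Control and 6 Low rats, had a scaled coverage of 5449 to 8102 for mitochondrial tRNA genes on the minus strand, against 84.9 to 154.6 in the other 17. That is a pattern in the data and not a labelled batch. Markers of cortex were present in all rats: 6 excitatory neuron genes summed to 768 to 1969, 6 oligodendrocyte genes to 2466 to 7951, 5 astrocyte genes to 1208 to 1926 and 5 microglia genes to 123 to 230, while 5 choroid plexus genes summed to 3.89 to 73.7 and 7 striatal genes to 194 to 1199. None of the markers tested (2 of 5 for choroid plexus, otherwise all) passed between any groups. In Low against Control, however, all 7 striatal markers had negative differences (median log2 fold change -0.57, sums of 249 to 588 in Low and 358 to 780 in Control), and all 6 oligodendrocyte markers had positive ones (median 0.10, sums of 4154 to 7951 and 3864 to 5587). All 5 microglia markers were positive too (median 0.10, sums of 160 to 188 and 123 to 221). In High against Control all 7 striatal, all 6 excitatory neuron and all 6 oligodendrocyte markers were negative (medians -0.29, -0.16 and -0.15). In Low against High all 7 striatal markers were negative (median -0.22) and all 6 oligodendrocyte markers positive (median 0.23). The part of these in the clock gene differences was not tested.

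**Figure D1:**
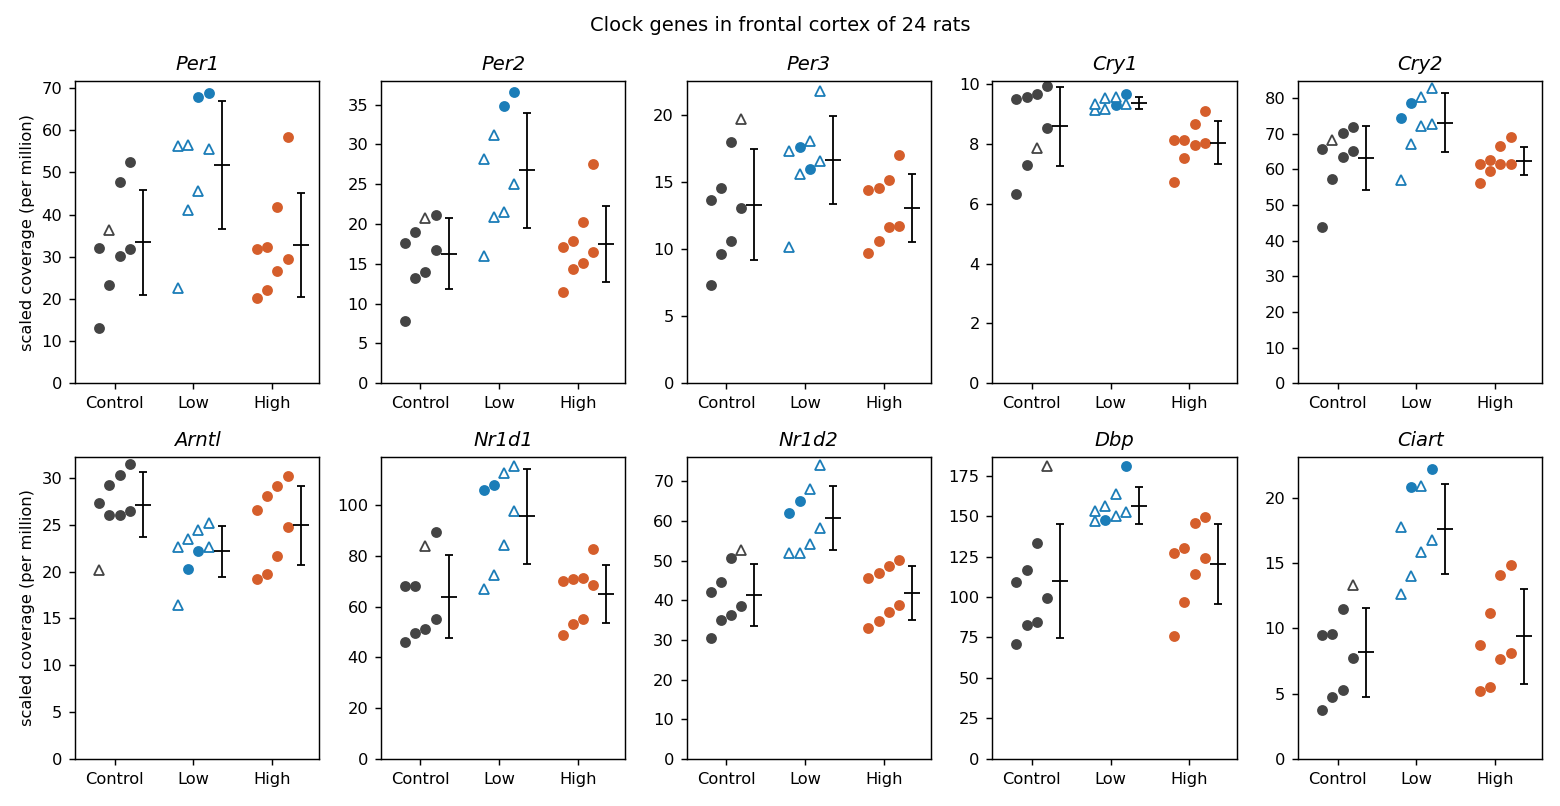
Scaled coverage (per 1000000, linear axes from 0) of the 10 clock genes in each of 24 rats by group, with bars for mean and SD and open triangles for libraries 56 to 62. Ciart lay at 12.6 to 22.2 in Low rats and at 3.73 to 13.3 in Control rats, and Dbp in the Low rats was packed between 147 and 181.

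All 10 genes were detected in all 24 rats and passed the filter on low values. In Control rats the order of mean levels was Dbp, Nr1d1, Cry2, Nr1d2, Per1, Arntl, Per2, Per3, Cry1 and Ciart. Dbp stood at 110 ± 35.2 (SD, n = 8) and Ciart at 8.17 ± 3.41 (SD, n = 8). The ranges of all 9 pairs of neighbours in this order overlapped. Within each of 8 of 8 Control rats, however, Dbp was above Nr1d1, Cry2 above Nr1d2, and Per3 above Cry1, while Nr1d1 exceeded Cry2 and Cry1 exceeded Ciart in 4 of 8.

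The first comparison asks whether clock genes differed after the lower dose. Against Control, 5 of the 10 clock genes were higher in Low rats and 0 were lower, namely Ciart, Per2, Nr1d1, Dbp and Nr1d2. Of all 15644 genes tested, 1.23% were higher, 4.88% were lower and 6.11% changed in either direction. At an unadjusted p under 0.05 it was 8 of the 10 genes and 18.4% of all genes. The Low and Control ranges overlapped for all 10, and they did not overlap for 1.53% of all genes. The median log2 fold change of the 10 genes was 0.56, against 0.06 over all genes. Arntl, the positive arm of the loop, was the single clock gene with a negative difference, and it did not pass the test.

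Ciart (ENSRNOG00000042717, chromosome 2, 197987705 to 197991574, minus strand), the repressor with 3 E-boxes above, had the largest difference of the 10. Its scaled coverage ran from 3.73 through a median of 8.60 to 13.3 in Control, and from 12.6 through 17.3 to 22.2 in Low. Of the 8 Low rats 7 lay above the highest Control rat, and all 8 lay above the Control median. The log2 fold change was 1.09 (SE 0.22, limma Benjamini-Hochberg adjusted p = 0.0023), a fold of 2.13. Dbp (ENSRNOG00000021027, chromosome 1, 101687855 to 101692846, plus strand), the D-box activator, had a low of 70.8, a median of 104 and a high of 181 in Control. In Low it had a low of 147, a median of 153 and a high of 181. Only 1 Low rat was above the highest Control rat, Control 56, but all 8 were above the Control median and above the next highest Control rat, which had 133. The log2 fold change of Dbp was 0.56 (SE 0.15, limma adjusted p = 0.023). The Low rats were also more alike, with a coefficient of variation of 7.22% for Dbp against 32.1% in Control and 20.4% in High, a difference that was not tested.

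Both REV-ERB genes were higher in Low. Nr1d2 (ENSRNOG00000046912, chromosome 15, 8730871 to 8757165, plus strand) spanned 30.6 to 52.6 in Control with a median of 40.3, and 51.8 to 74.0 in Low with a median of 60.2. Here 6 of 8 Low rats were above every Control rat. The log2 fold change was 0.55 (SE 0.11, limma adjusted p = 0.0018), with the smallest p of the 10 genes. Nr1d1 (ENSRNOG00000009329, chromosome 10, 86683875 to 86690815, minus strand) spanned 46.2 to 89.3 in Control with a median of 61.6, and 67.1 to 116 in Low with a median of 102. Of the Low rats 5 of 8 were above every Control rat and all 8 above the Control median. Its log2 fold change was 0.58 (SE 0.15, limma adjusted p = 0.015). Nr1d1 overlaps Thra on the opposite strand, the only overlap with another reference gene among the 10. The study's methods name a stranded library kit. For Per1, Per2, Per3 and Nr1d2, however, Control 56 was the only 1 of 16 Control and High tables with opposite-strand assembled loci (6, 14, 11 and 7). Low tables hold no assembled loci, so this could not be looked at in Low 57 to 62. The part of Thra reads in the Nr1d1 values was not tested. Thra itself differed by 0.13 on the log2 scale (limma adjusted p = 0.39).

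Among the Per genes, which encode the negative arm, Per2 passed the test while Per1 and Per3 did not. Per2 (ENSRNOG00000020254, chromosome 9, 98555169 to 98597359, minus strand) lay at 7.85 to 21.2 in Control with a median of 17.2, and at 15.9 to 36.5 in Low with a median of 26.6. In 6 of 8 Low rats it exceeded every Control rat, and the log2 fold change was 0.69 (SE 0.19, limma adjusted p = 0.027). Per1 (ENSRNOG00000007387, chromosome 10, 55687050 to 55695994, plus strand) had a difference of similar size with a wider spread, from 13.2 to 52.4 in Control (median 32.0) and from 22.7 to 68.9 in Low (median 56.0). It exceeded every Control rat in 5 of 8 Low rats, at a log2 fold change of 0.65 (SE 0.25, limma adjusted p = 0.15). Low 57 was the lowest Low rat for Per1, Per2, Per3 and Cry2, and without it Per1 reached 0.81 (limma adjusted p = 0.046). Per3 (ENSRNOG00000018413, chromosome 5, 168086998 to 168123395, minus strand) had 7.31, 13.3 and 19.7 as its lowest, median and highest value in Control and 10.1, 16.9 and 21.8 in Low. Its groups overlapped almost fully, and the log2 fold change was 0.33 (SE 0.16, limma adjusted p = 0.27).

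The Cry genes, which encode the partner repressors of PER, differed least. Cry2 (ENSRNOG00000007478, chromosome 3, 81314149 to 81344110, minus strand) ran from 43.9 through 65.4 to 72.0 in Control and from 56.9 through 73.6 to 82.9 in Low. Although 6 of 8 Low rats exceeded every Control rat, the log2 fold change of 0.21 (SE 0.08) had a limma adjusted p of 0.16. Cry1 (ENSRNOG00000006622, chromosome 7, 24534615 to 24634097, plus strand) ran from 6.34 through 9.01 to 9.93 in Control and from 9.13 through 9.35 to 9.69 in Low. The Low values fell inside the Control range, with a coefficient of variation of 2.12% against 15.3%, and the log2 fold change was 0.13 (SE 0.08, limma adjusted p = 0.39). Arntl (ENSRNOG00000014448, chromosome 1, 178039063 to 178137465, plus strand) ran from 20.2 through 26.9 to 31.5 in Control and from 16.4 through 22.6 to 25.2 in Low. All 8 Low rats were below the Control median, and the log2 fold change was -0.28 (SE 0.10, limma adjusted p = 0.12). Control 56 was the lowest Control rat for Arntl and the highest for Dbp, Ciart, Nr1d2 and Per3. Without it Arntl reached -0.34 (limma adjusted p = 0.030).

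The submitters' processing notes name the mRatBN7.2 build, but clone-based gene names in the tables are those of an earlier rat assembly, so the build of the gene positions above is not settled. The calls of Ciart, Nr1d1 and Nr1d2 held without any single rat. Without Control 50 or 51 the count was 3, where 93 and 80 of all 15648 genes were higher, against 192 of 15644 with all rats. Per2 lost its call without Control 49, 50 or 51 or without Low 60 or 62 (0.56 to 0.67, limma adjusted p 0.052 to 0.061), and Dbp without Control 50, 51 or 52 (0.48 to 0.52, limma adjusted p 0.055 to 0.058). With libraries 56 to 62 as a covariate 0 of 10 genes passed, and 14 of all 15644 genes were higher (Ciart 1.06 with limma adjusted p = 0.056, Nr1d2 0.50 with 0.079, Per2 0.82 with 0.086, Nr1d1 0.57 with 0.18, Dbp 0.39 with 0.52). With libraries 56 to 62 left out, 4 of 10 passed although only 2 Low rats remained, namely Ciart at 1.50, Per2 at 1.19, Nr1d1 at 0.83 and Nr1d2 at 0.68 (limma adjusted p 0.026 to 0.045), where 10 of all 15669 genes were higher. Those rats, Low 63 and 64, had Per1 at 68.9 and 68.0, Per2 at 34.8 and 36.5 and Ciart at 22.2 and 20.8, against 36.4, 20.8 and 13.3 in Control 56.

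The ratio of coverage to FPKM, which both stand in the tables, shows where a gene's value rests on how its reads were shared among transcripts. Relative to the median gene of each table it equalled that gene's within 0.1% in 24 of 24 tables for Per1, Per2, Cry1, Cry2 and Arntl. It was at least 0.989 for Dbp, 0.917 to 0.937 for Nr1d1 and 0.816 to 0.907 for Ciart. For Nr1d2 it was 0.992 to 0.997 in Low against 0.762 to 0.915 in Control and 0.811 to 0.922 in High. For Per3 it was 0.426 to 0.563 in Low against 0.534 to 0.900 and 0.699 to 0.882. With FPKM brought to a sum of 1000000 in place of coverage, the log2 fold change of Nr1d2 was 0.34 (limma adjusted p = 0.023), that of Per3 0.90 (limma adjusted p = 0.0011) and that of Ciart 1.13 (limma adjusted p = 0.00093). On that scale Per2 was at 0.66, Nr1d1 at 0.57 and Dbp at 0.53 (limma adjusted p = 0.019, 0.0080 and 0.018), so the values of Nr1d2 and Per3 were the ones that depended on the column used. Arntl passed as lower, at -0.31 (limma adjusted p = 0.046).

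**Figure D2:**
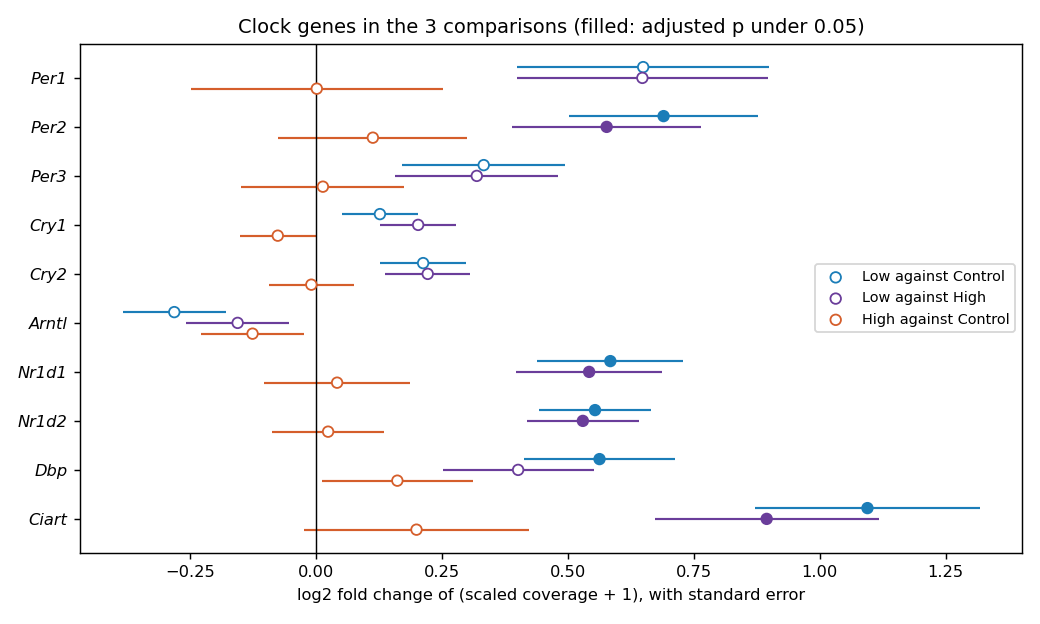
Log2 fold changes of the 10 clock genes with standard errors (bars) in the 3 comparisons, n = 8 rats a group, filled where the limma adjusted p is under 0.05. Both comparisons of Low lie to the right of 0 for 9 of 10 genes and to the left for Arntl, while High against Control stays between -0.13 and 0.20.

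At the higher dose no clock gene passed the test against Control, nor did any of the 15644 genes (0.0%), although Control and High tables are of the same kind. At an unadjusted p under 0.05 there were 0 of the 10 clock genes and 330 genes in all (2.11%), and the exact Wilcoxon rank-sum test called 0 as well. High and Control ranges overlapped for all 10 clock genes, and they did not overlap for 0.00639% of all genes. Log2 fold changes ran from -0.13 for Arntl (SE 0.10) to 0.20 for Ciart (SE 0.22), with a median of 0.02 against -0.03 over all genes. All limma adjusted p values were 0.9994 or above.

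High rats covered much the same levels as Control rats. Ciart ran from 5.19 through 8.39 to 14.8, Dbp from 75.6 through 126 to 149, Nr1d1 from 48.9 through 69.2 to 82.5 and Nr1d2 from 32.9 through 42.3 to 50.2. Dbp differed from Control by 0.16 (SE 0.15), with 6 of 8 High rats above the Control median. Per1 ran from 20.2 through 30.6 to 58.4, Per2 from 11.5 through 16.8 to 27.5 and Per3 from 9.69 through 13.1 to 17.0. High 72 held the highest Per1, Per2 and Ciart values of its group. Cry1 ran from 6.73 through 8.08 to 9.11, with 7 of 8 High rats below the Control median, at a log2 fold change of -0.08 (SE 0.08). Cry2 ran from 56.3 through 61.6 to 69.0, and Arntl from 19.2 through 25.7 to 30.2, with 2 of 8 rats below the lowest Control rat. The standard error of these differences was between 0.08 for Cry1 and Cry2 and 0.25 for Per1 on the log2 scale, so a small difference in Per1 was not detectable here.

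The comparison of both doses tests whether Low and High differ from each other. It shares its Low rats with the first comparison. In Low, 4 of 10 clock genes were higher than in High and 0 were lower, where 5.3% of all genes were higher, 6.39% lower and 11.7% changed. At an unadjusted p under 0.05 it was 8 of 10 and 29.1% of all genes. Nr1d2 differed by 0.53 (SE 0.11, limma adjusted p = 0.0024), Ciart by 0.89 (SE 0.22, limma adjusted p = 0.0093), Nr1d1 by 0.54 (SE 0.15, limma adjusted p = 0.015) and Per2 by 0.58 (SE 0.19, limma adjusted p = 0.047). The 8 Low and the 8 High values did not overlap at all for Nr1d2 and Cry1, which holds for 2.26% of genes tested. The log2 fold change of Cry1 was 0.20 (SE 0.08, limma adjusted p = 0.081). For Dbp it was 0.40 (SE 0.15, limma adjusted p = 0.080), with 6 of 8 Low rats above every High rat. Per1 at 0.65 and Cry2 at 0.22 had limma adjusted p values of 0.090 and 0.087. Per3 at 0.32 and Arntl at -0.16 were further from the threshold, with 0.19 and 0.31. With FPKM brought to a sum of 1000000, Per3 was at 0.92 (limma adjusted p = 0.0008) and Nr1d2 at 0.34 (limma adjusted p = 0.018), so both values depended on the column, and the separation of the Low and High ranges of Nr1d2 was seen on coverage. The median of the 10 genes was 0.47, against 0.09 over all genes.

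The Per2 call was weak, being lost without any 1 of 15 rats (Control 50, 52, 54 or 55, Low 59, 60, 62, 63 or 64, High 65, 66, 67, 69, 70 or 71, with 0.50 to 0.59 and limma adjusted p up to 0.099). Leaving out Control 49 or Low 57 brought 6 genes past the threshold, and with both of these and Control 56 left out it was 9. The higher calls over all genes grew as well, from 829 to 1602 without Control 49, 1340 without Low 57 and 3322 without all 3. With libraries 56 to 62 as a covariate, and equally with those libraries left out, 0 of 10 passed, at differences of 0.85 and 1.19 for Ciart and 0.46 and 0.61 for Nr1d2. Higher calls over all genes fell there too, from 829 to 31 of 15644 and to 19 of 15669.

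Scaling cancels when 2 genes are compared within a rat, so the balance of the loop was also read as the difference of log2 levels. Dbp minus Arntl ran from 1.22 through 1.92 to 3.16 in Control, from 2.63 through 2.77 to 3.22 in Low and from 1.43 through 2.33 to 2.78 in High. Ciart minus Arntl ran from -3.02 through -1.69 to -0.60, from -0.69 through -0.37 to 0.04 and from -2.46 through -1.28 to -0.41 in the same order. For Per2 minus Arntl the values were -1.73, -0.68 and 0.04, then -0.56, 0.34 and 0.85, and then -1.02, -0.57 and 0.48. Low rats thus sat at the Dbp-rich end of the range, and Control 56 was the Control rat at that end in all 3. These differences were not tested.

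**Figure D3:**
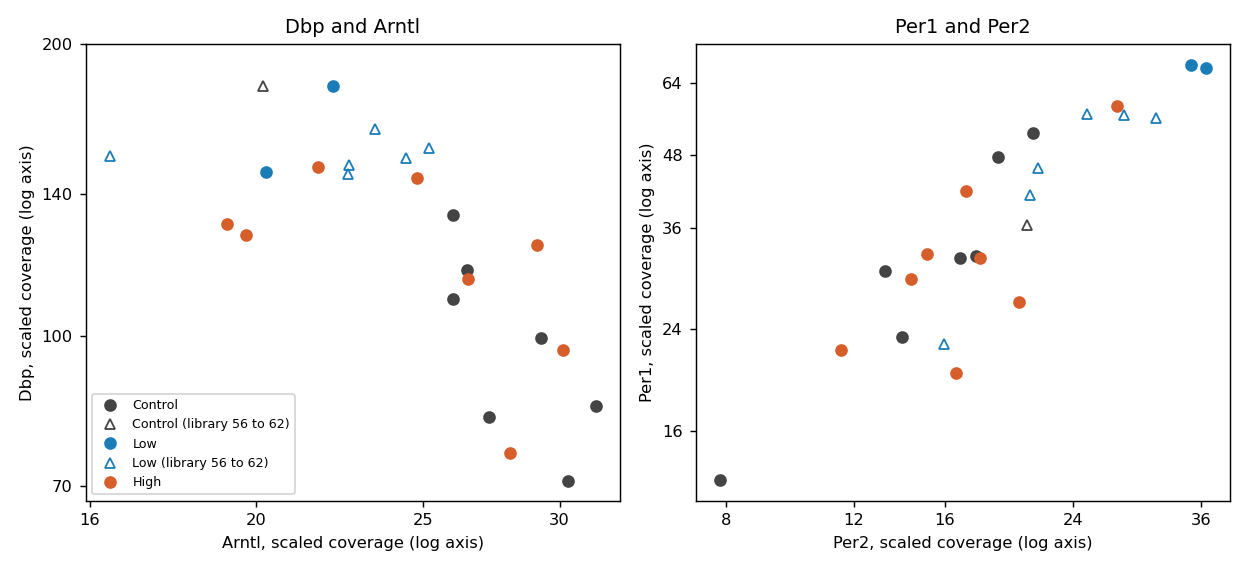
Scaled coverage of Dbp against Arntl and of Per1 against Per2 in each of 24 rats (log axes), coloured by group, with open triangles for libraries 56 to 62. Control rats run from high Arntl with Dbp near 70.8 to low Arntl with Dbp at 181, and Per1 and Per2 are high in the same rats of each group.

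The clock genes differed among themselves in how much they varied between rats of 1 group. The residual SD on the log2 scale had a median of 0.31 over the 10 genes, against 0.218 over all genes tested. It was widest for Per1 (0.53, at percentile 91.4 of all genes), Ciart (0.469) and Per2 (0.395), and narrowest for Cry1 (0.138, percentile 15.1), Cry2 (0.171) and Arntl (0.208).

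After group means were subtracted, 20 of the 45 pairs of clock genes were correlated across the 24 rats (permutation within groups, 100000 draws, Benjamini-Hochberg adjusted p under 0.05 over the 45 pairs), 19 of them positively. Spearman's rho also passed in 20 pairs. Per1 and Per2 had Pearson r = 0.87 (permutation adjusted p = 0.00023, rho = 0.82) and Nr1d1 and Nr1d2 r = 0.83 (permutation adjusted p = 0.00023, rho = 0.78). Dbp and Ciart, both E-box outputs, had r = 0.79 (permutation adjusted p = 0.00099, rho = 0.72), and Nr1d1 and Ciart r = 0.79 (permutation adjusted p = 0.0006, rho = 0.80). Without the 2 rats farthest from the median of the first gene these 4 pairs had r = 0.77, 0.85, 0.74 and 0.75. Of the 20 pairs 16 had the same sign in all 3 groups. The share of all gene pairs that would pass was not computed, so the count of 20 has no background beside it. Many other genes were as close to Per1 as some of its called partners. Of 15643 genes ranked by r with Per1, Per2 stood at rank 2, Cry2 at 114, Nr1d2 at 1839 and Per3 at 2014.

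Per1, Per2 and Cry2 were correlated with each other, where Per2 and Cry2 had r = 0.80 and Per1 and Cry2 r = 0.76 (permutation adjusted p = 0.0009 and 0.0024, rho = 0.69 and 0.63, r = 0.61 and 0.47 without the 2 farthest rats). Dbp, by contrast, had r = 0.09 with Per2, 0.20 with Per1 and 0.00 with Cry2 (permutation adjusted p = 0.76, 0.54 and 0.99, rho = 0.01, 0.20 and -0.04). Ciart had r = 0.37 with Per1 and 0.34 with Per2 (permutation adjusted p = 0.17 and 0.20), and by rank its pair with Per1 passed (rho = 0.50, permutation adjusted p = 0.046). Nr1d2 was correlated with Per and output genes alike, at r = 0.61 with Per1, 0.65 with Per2, 0.57 with Dbp and 0.69 with Ciart (permutation adjusted p = 0.011, 0.0042, 0.025 and 0.0054, rho = 0.62, 0.63, 0.47 and 0.72), although its pair with Dbp did not pass by rank (permutation adjusted p = 0.068). Nr1d1 was likewise correlated with Per2 and Dbp (r = 0.58 and 0.59, permutation adjusted p = 0.018 and 0.017, rho = 0.66 and 0.48), and so was Per3 (r = 0.50 and 0.57, permutation adjusted p = 0.048 and 0.031, rho = 0.35 and 0.53). By rank, Nr1d1 with Dbp and Per3 with Per2 did not pass (permutation adjusted p = 0.054 and 0.16). Per3 and Per2 had r = 0.14 without the 2 farthest rats, and within groups 0.86 in Control, 0.70 in Low and -0.47 in High. The pairs of Dbp and Per2 or Cry2 were not tested for a difference from the others. Per3 was correlated with Nr1d2 at r = 0.72 (permutation adjusted p = 0.0024, rho = 0.68), and Cry1 with no other clock gene.

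Arntl and Dbp were the single negative pair that passed, at r = -0.59 (permutation adjusted p = 0.011, rho = -0.61, -0.54 without the 2 farthest rats). Within groups r was -0.89 in Control (exact permutation p = 0.0039, 0.025 after adjustment over the 45 pairs), -0.58 in High (exact permutation p = 0.13, adjusted 0.35) and 0.13 in Low (exact permutation p = 0.72, adjusted 0.90), where Dbp hardly varied. Arntl and Ciart had r = -0.44 (permutation adjusted p = 0.093) with rho = -0.55 (permutation adjusted p = 0.040). With libraries 56 to 62 also centred, Arntl and Dbp had r = -0.45, and 11 of the 45 pairs passed, all positive. With median-of-ratios scaling 13 passed, 11 positive and 2 negative.

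**Figure D4:**
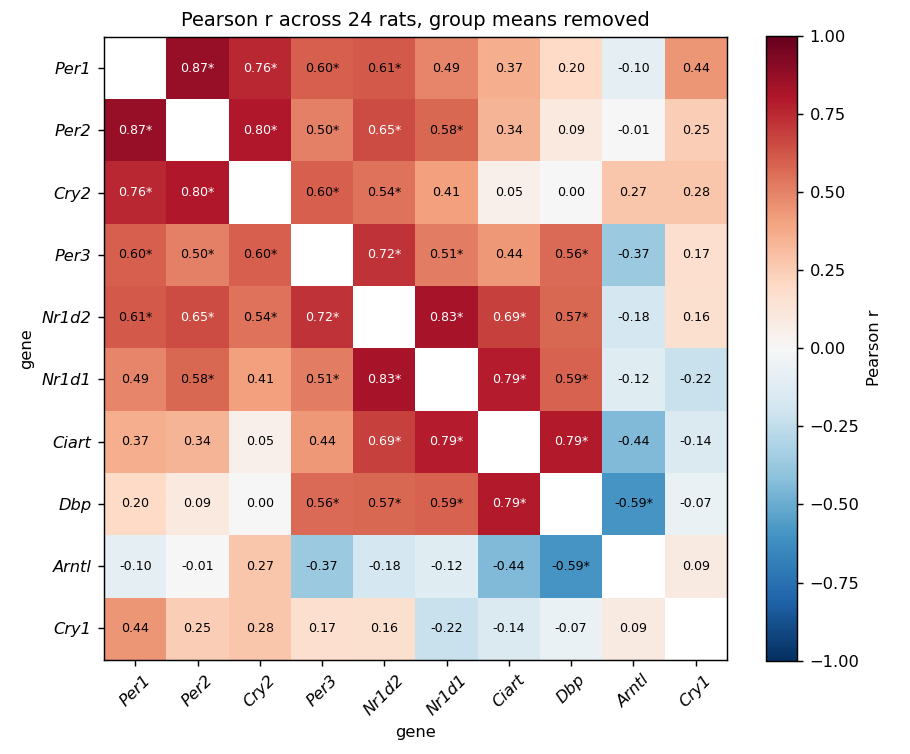
Pearson r between the 10 clock genes over 24 rats after group means were removed, with an asterisk where the permutation adjusted p over 45 pairs is under 0.05. Pairs among Per1, Per2 and Cry2 and among Nr1d1, Ciart and Dbp lie between 0.59 and 0.87, and Arntl is negative with 7 of the 9 others.

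Among all genes tested, Ciart had the highest correlation with Dbp over the 24 rats, rank 1 of 15643, and Arntl stood at rank 15638. After Ciart came Rela (r = 0.79), a subunit of NF-kB, Csad (0.76), an enzyme of taurine synthesis, Ring1 (0.75), a Polycomb protein, Id1 (0.75), an inhibitor of helix-loop-helix factors, and Mfsd2a (0.73), a lipid transporter of brain endothelium. For Per1 the leading gene was Tob2 (r = 0.87), with Per2 at rank 2, followed by Prelid3a (0.86), Arl5b (0.86), Wdr90 (0.86) and Tiparp (0.85). For Arntl they were Lrrc4c (0.79), Mtch2 (0.78), Cop1 (0.78), Lrrc57 (0.77) and Calb1 (0.76), while Cry2, the best placed of the clock genes, stood at rank 3893. All these values come from the same 24 libraries and are a description.

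Other genes of the pathway were taken from a list of 25 genes, of which 22 passed the filter on low values. Against Control, 2 of the 22 were higher in Low and 1 was lower, where 1.23% and 4.88% of all genes were, with a median log2 fold change of 0.13 against 0.06 over all genes. In High 0 passed, where 0.0% of all genes did. Between both doses again 2 of the 22 were higher and 1 lower in Low, where 5.3% and 6.39% of all genes were. Clock, the partner of ARNTL, was the lower one. Its scaled coverage ran from 10.1 through 20.6 to 22.4 in Control, from 1.54 through 9.69 to 12.2 in Low and from 14.2 through 16.5 to 19.2 in High. The log2 fold change was -1.21 against Control (SE 0.24, limma adjusted p = 0.0017) and -1.03 against High (limma adjusted p = 0.0057). Low 57 had the value of 1.54, and in that table the ratio of coverage to FPKM of Clock was 0.309 of the median gene's. Over the alternatives tried the Low against Control value of Clock kept its sign, between -2.18 and -0.44.

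Cipc, which encodes an inhibitor of CLOCK, ran from 32.4 through 42.6 to 45.6 in Control and from 43.4 through 51.0 to 55.8 in Low. It was higher by 0.29 (SE 0.07, limma adjusted p = 0.011), and by 0.24 against High (limma adjusted p = 0.026). Wee1, a cell cycle kinase gene under E-box control, ran from 13.0 through 17.1 to 18.1 in Control and from 16.3 through 19.8 to 21.3 in Low. It was higher by 0.25 (SE 0.07, limma adjusted p = 0.028), and by 0.23 against High (limma adjusted p = 0.029). Genes that did not pass included Bhlhe40, a repressor of the pair, at 0.63 (limma adjusted p = 0.093), Tef, a D-box factor like Dbp, at 0.21 (0.12), Npas2, the alternative partner of ARNTL, at 0.17 (0.28), and Nfil3, which competes at D-boxes, at -0.14 (0.65). Single rats decided some of these calls. Without Low 60 or 62 the count between both doses fell from 3 to 1, without Control 49 or Low 61 it reached 6 and without Low 57 it was 5, while Wee1 against Control lost its call without Control 49, 51 or 52 or Low 58, 59, 60 or 62 (0.21 to 0.25) and against High without Low 58, 59, 60 or 62 or High 67 or 72 (0.21 to 0.23). Cipc against High lost it without Low 60 or 62 or High 68 or 69 (0.22 to 0.23). With libraries 56 to 62 as a covariate Cipc and Wee1 lost their calls in both comparisons (0.19 to 0.29, limma adjusted p 0.16 to 0.41). The same held with those libraries left out (0.22 to 0.38, limma adjusted p 0.14 to 0.56). Over all genes 14 and 31 of 15644 were higher with the covariate, and 10 and 19 of 15669 with the libraries left out.

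Genes induced by neuronal activity also differed between groups, in a list that was likewise chosen with earlier results of these data known. Of 12 such genes 10 were higher in Low than in High and 0 were lower, where 5.3% of all genes were higher and 6.39% lower, with a median log2 fold change of 1.06 against 0.09 over all genes. These were Npas4 (1.66), Arc (1.64), Egr2 (1.41), Junb (1.15), Dusp1 (1.11), Fos (1.09), Nr4a1 (1.03), Egr1 (0.95), Ier2 (0.74) and Egr4 (0.70), with limma adjusted p from 0.00019 to 0.041. Against Control only Junb (0.71) and Egr4 (0.56) were higher in Low (limma adjusted p = 0.027 and 0.030), where 1.23% of all genes were. The median over the 12 was 0.60. High against Control had 0 calls, 5 genes at an unadjusted p under 0.05 (2.11% of all genes), and 11 of 12 negative differences. Their summed scaled coverage was 391 to 770 in Control rats, 489 to 1146 in Low rats and 176 to 709 in High rats. Among 8 glucocorticoid-responsive genes Klf9 was the only call in the 3 comparisons, 0.26 higher in Low than in High (limma adjusted p = 0.010). In that comparison 5.3% of all genes were higher and 11.7% changed in either direction.

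Within groups, the mean log2 level of these activity genes was correlated with Per1 at r = 0.80 (permutation adjusted p = 0.0002, rho = 0.83, 0.76 without the 2 farthest rats), with Per2 at r = 0.75 (permutation adjusted p = 0.00025, rho = 0.70, 0.66 without them) and with Cry2 at r = 0.61 (permutation adjusted p = 0.0014, rho = 0.60, 0.48 without them). Adjustment is over the 20 relations of the 10 genes with this mean and with that of the excitatory neuron markers, a test chosen after the data were seen. In these relations the 2 farthest rats are those farthest from the median of the list mean, not of the clock gene. The other 7 clock genes did not pass, with r = 0.13 for Dbp, 0.05 for Arntl, 0.40 for Nr1d1 and 0.43 for both Nr1d2 and Ciart. The excitatory neuron markers were correlated with Per2 at r = 0.70, Cry2 at 0.66, Per1 at 0.54 and Arntl at 0.53 (permutation adjusted p = 0.00025, 0.0002, 0.023 and 0.049, rho = 0.67, 0.61, 0.49 and 0.44), which became 0.57, 0.56, 0.37 and 0.44 without the 2 farthest rats. The rank correlation passed for Per2 and Cry2 only. The rat with the lowest sum of these markers in each group, Control 49, Low 57 and High 67, was also the lowest of its group for Per2 and Cry2. In bulk tissue fewer cells of a type and less RNA per cell cannot be told apart, and the part of cell makeup or activity in the differences between groups was not tested.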

How the data were processed

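Sequencing tables of 24 rats, 1 a rat and 8 a group by the labels, were used. The authors trimmed and aligned the reads and assembled them with StringTie, and per the submitters' processing notes FastQC, Trimmomatic, TopHat2 and StringTie were used, with versions not given there. The deposited tables hold 3 values a gene: coverage (reads per base), FPKM and TPM. In the deposited Low tables the column headed TPM is TPM in the usual sense. In the deposited Control and High tables that column is rather a score, since the assembled loci alone fill its total and the reference genes come on top. FPKM and TPM were therefore used only in alternatives.

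Coverage was summed per Ensembl ID and scaled to 1000000 over the 32883 reference genes. Genes with a mean of at least 1 were kept (15644). All 3 groups entered 1 limma fit (version 3.58.1, R 4.3.3) on log2(scaled coverage + 1) with trend and robust variance, two-sided, with Benjamini-Hochberg adjustment over all genes tested and a threshold of 0.05. Correlations used 100000 permutations within groups. Scripts were tested on simulated data. Alternatives changed the pseudocount (0.1), the filter, the scaling, the column, the test and the samples. The members and the gene lists were chosen with earlier results of these data known. The genes named are the 10 members, all genes of the pathway list past the threshold and up to 4 more of it, activity and glucocorticoid genes past the threshold in High against Control or Low against High, and the 5 genes with a symbol of highest Pearson r to each of Dbp, Per1 and Arntl.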

Additional observations from a re-analysis of the deposited data

How the results depend on the processing

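No paired analysis was possible because the groups share no replicate numbers. High against Control called 0 clock genes under all alternatives tried. The clock gene count of Low against Control (5) and of Low against High (4) was 1 and 0 without scaling, 9 and 10 with the FPKM column, 8 and 8 with the TPM column, 5 and 4 (all lower) with same-strand assembled loci added, and none in either when a covariate marked libraries 56 to 62 (0 and 0). The exact Wilcoxon rank-sum test called 2 in Low against Control, where 56 of 15644 genes were higher. For Low against High the count was 7 with only the groups compared, where 1050 of 15587 genes were higher. It was 9 without libraries 49, 56 and 57 and 0 with libraries 56 to 62 left out (19 of 15669 genes higher). Without scaling, 32 and 77 of 15665 genes were higher in Low against Control and Low against High. With the covariate it was 14 and 31 of 15644. Leaving out 1 rat gave 3 to 6 in both. Several of these counts follow the whole table: in Low against Control the FPKM column called 11948 of all 13816 genes higher, the TPM column 3178 of 15587, and added loci 16908 of 18145 lower, so the counts under them, those of the pathway list included, say little of clock genes. The pathway list (3 and 3) gave 1 and 1 without scaling or with libraries 56 to 62 left out, 5 and 6 when scaled without mitochondrial genes, 20 and 20 with FPKM, 11 and 11 with TPM, 22 and 20 with assembled loci added, 1 and 0 with the covariate and 8 and 6 with FPKM scaled to 1000000. It gave 1 with the Wilcoxon test in Low against Control and 12 without libraries 49, 56 and 57 in Low against High, where leaving out 1 rat gave 1 to 6. Calls over all genes, 192 higher and 764 lower in Low against Control and 829 and 999 in Low against High, grew in some of these. They were 858 and 901, and 1550 and 1169, without mitochondrial genes. With FPKM scaled to 1000000 they were 955 and 892, and 1551 and 1080. Without libraries 49, 56 and 57 they were 3322 and 1205 in Low against High. The 20 correlated pairs became 38 without scaling, 13 with median-of-ratios scaling and 11 with the covariate.

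Low tables lack assembled loci. In Control and High all 160 pairs of clock gene and table had a same-strand locus, and in 36 of them a locus equalled the gene's value within 0.1%. How far the others repeat reads of the reference genes was not tested. Adding the loci moved the median of all genes to -0.87 in Low against Control and -0.82 in Low against High. The clock genes' median was -0.22 and -0.31, above that shift. Adding the loci reversed Low against Control for Per1 (-0.17), Per2 (-0.19), Per3 (-0.60), Cry1 (-0.79), Cry2 (-0.53), Nr1d1 (-0.12), Nr1d2 (-0.26), Dbp (-0.10), Cipc (-0.39) and Wee1 (-0.68). Low against High was reversed there for Per1 (-0.48), Per2 (-0.22), Per3 (-0.52), Cry1 (-0.71), Cry2 (-0.41), Nr1d1 (-0.14), Nr1d2 (-0.22), Dbp (-0.18), Cipc (-0.41) and Wee1 (-0.70), and High against Control for Per3 (-0.086), Nr1d2 (-0.039) and Ciart (-0.0087). The unscaled FPKM column moved the median of all genes to 0.53 and 0.52, and there Arntl, still below that shift, reversed in Low against Control (0.20) and Low against High (0.27), and Cry2 in High against Control (0.038). The other reversals were of High against Control values near 0: Per1 with the covariate (-0.036) and without libraries 49, 56 and 57 (-0.16), Per3 without those libraries (-0.0096) and with FPKM scaled to 1000000 (-0.014), Wee1 without those libraries (-0.0093), Cry1 and Arntl without scaling (0.090 and 0.050), and Cry2 without scaling (0.17), with median-of-ratios scaling (0.028), without mitochondrial genes (0.015), with TPM (0.039) and with libraries 56 to 62 left out (0.0080). Leaving out 1 rat gave -0.17 to 0.11 for Per1, -0.018 to 0.19 for Per2, -0.090 to 0.098 for Per3, -0.081 to 0.019 for Cry2, -0.018 to 0.12 for Nr1d1, -0.033 to 0.076 for Nr1d2 and -0.023 to 0.048 for Wee1. The causes of the other changes were not tested.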
